A study of Mus musculus with 16 samples.

Results

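The regions described here are 2 large clusters of KRAB zinc finger genes in the mouse genome (build mm10), chr2:175000000-178000000 and chr4:145400000-147900000. They were taken as the 10 kb windows inside these bounds, 300 on chromosome 2 and 250 on chromosome 4, so 550 of the 272253 windows of the genome. The comparison regions were the 3 Mb on either side of each cluster, 600 windows per chromosome. The study read where the maintenance methyltransferase DNMT1 deposits an azide-tagged group in E14TG2a mouse embryonic stem cells. The tracked cells were heterozygous for the Dnmt1 N1580A substitution, so 1 of their Dnmt1 alleles was wild type. Electroporation delivered 1 mM Ado-6-azide, which stands in for the cofactor S-adenosylmethionine, and DNA was taken 3 h later. Each deposited table lists CpG positions and the reads that start from the label at each.

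There were 16 libraries. The heterozygous knock-in triplicate (Het) and the wild-type Dnmt1 triplicate (WT) had 3 libraries each, and a wild-type control had 2. Heterozygous knock-in cells were also sampled in duplicate on days 0, 2, 4 and 8 of priming. Naive cells grew with LIF and the inhibitors CHIR99021 (3 µM) and PD0325901 (1 µM), and priming was passaging with LIF but without the inhibitors for 8 days. The sources used here do not give the culture state of the Het triplicate, how WT differs from the wild-type control, or whether the knock-in line is 1 clone. The tables hold no expression values, so the cells' identity was not checked against markers. Whether replicates came from separate cultures is not stated, so each p-value rests on libraries that may be technical repeats.

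KRAB zinc finger proteins bind DNA through tandem zinc fingers and recruit the corepressor TRIM28 (KAP1) through their KRAB domain. TRIM28 brings in the histone H3 lysine 9 methyltransferase SETDB1 and HP1 proteins, and DNA methylation accompanies this silencing at many retrotransposons in embryonic stem cells. The genes lie in clusters that grew by tandem duplication, which left near-identical copies side by side. Some clusters expanded in the mouse lineage, and deleting whole clusters derepresses some retrotransposons. DNMT1 copies CpG methylation onto the new strand after replication.

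The chromosome 2 cluster overlapped 70 annotated genes (RefSeq, GRCm38.p6). Of these, 30 were protein-coding, 13 were long non-coding RNA genes, 25 were pseudogenes and 2 were other RNA genes. Among the 30 protein-coding genes, 7 had a Zfp symbol, 21 had a provisional Gm symbol, and the others were LOC115489542 and 2210418O10Rik. The chromosome 4 cluster overlapped 84 genes, 22 protein-coding, 7 long non-coding and 55 pseudogenes. Its protein-coding set held 17 Zfp genes or Rex2, 2 Gm genes, and 3 genes of other kinds at its distal edge. Those 3 were Miip, Fv1, a retroviral restriction factor that derives from an endogenous gag gene, and Mfn2, a GTPase of mitochondrial fusion.

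Promoter sequences show what the members share and where their CpGs were listed. The 250 bases before annotated starts are printed 5′ to 3′ from RefSeq (GRCm38.p6), with each CpG that any of the 11 knock-in libraries listed in capitals. Zfp988 is at chr4:147305354-147305603 (+), Zfp982 at chr4:147492167-147492416 (+, before an internal start), Zfp985 at chr4:147553027-147553276 (+), Zfp600 at chr4:146156577-146156826 (+), Rex2 at chr4:147021600-147021849 (+) and Zfp967 at chr2:176520754-176521003 (+). The first 3 are shown because their promoters carried listed CpGs, and the last 3 because they are near-identical copies with none. Zfp982 has other annotated starts, which are not printed. The 250 bases before its first base, chr4:147442864-147443113 (+), held 11 CpGs with 1 listed, by 4 reads in Het replicate 3. Those at chr4:147500436-147500685 (+) held 2 CpGs with 1 listed.
Zfp988: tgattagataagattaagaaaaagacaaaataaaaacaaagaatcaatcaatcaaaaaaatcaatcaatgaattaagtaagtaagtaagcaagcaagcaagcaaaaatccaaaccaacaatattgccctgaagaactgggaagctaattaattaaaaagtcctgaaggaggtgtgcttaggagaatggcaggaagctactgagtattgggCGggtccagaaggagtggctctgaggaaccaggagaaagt
Zfp982: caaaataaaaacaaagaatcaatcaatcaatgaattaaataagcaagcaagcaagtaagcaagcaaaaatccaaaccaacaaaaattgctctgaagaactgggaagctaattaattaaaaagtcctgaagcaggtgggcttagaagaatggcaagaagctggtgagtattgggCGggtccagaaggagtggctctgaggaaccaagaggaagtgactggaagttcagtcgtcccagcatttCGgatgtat
Zfp985: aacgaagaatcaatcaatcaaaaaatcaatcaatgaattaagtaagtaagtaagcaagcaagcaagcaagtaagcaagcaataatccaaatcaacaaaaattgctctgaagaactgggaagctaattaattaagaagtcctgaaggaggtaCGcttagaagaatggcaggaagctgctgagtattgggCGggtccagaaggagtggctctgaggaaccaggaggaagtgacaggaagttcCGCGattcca
Zfp600: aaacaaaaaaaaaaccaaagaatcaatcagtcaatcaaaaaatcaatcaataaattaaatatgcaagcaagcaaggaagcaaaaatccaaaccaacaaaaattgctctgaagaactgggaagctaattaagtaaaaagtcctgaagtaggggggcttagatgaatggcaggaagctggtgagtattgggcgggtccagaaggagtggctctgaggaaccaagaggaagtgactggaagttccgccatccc
Rex2: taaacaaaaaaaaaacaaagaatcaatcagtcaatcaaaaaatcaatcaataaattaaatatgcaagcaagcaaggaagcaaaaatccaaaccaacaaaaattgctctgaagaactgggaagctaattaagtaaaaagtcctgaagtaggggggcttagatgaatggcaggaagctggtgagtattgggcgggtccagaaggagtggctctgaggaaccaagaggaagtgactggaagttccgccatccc
Zfp967: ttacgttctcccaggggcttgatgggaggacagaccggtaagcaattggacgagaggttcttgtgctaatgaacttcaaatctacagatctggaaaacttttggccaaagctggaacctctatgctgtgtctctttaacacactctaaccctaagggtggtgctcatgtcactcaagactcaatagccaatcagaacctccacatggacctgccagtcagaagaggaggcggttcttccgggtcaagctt

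The first 5 of these share the stretch tattgggCGggtccag, the 16-base run with a CpG that the most chromosome 4 cluster genes share in their promoters. Searched on both strands as TATTGGGCGGGTCCAG, it stands in 9 of 32851 promoters (0.0274%), counting 250 bases before to 50 after the start, and all 9 are in the chromosome 4 cluster. The carriers are Gm13212, Zfp980, Zfp600, Rex2, Zfp988, Zfp982, Zfp985, Zfp979 and Zfp984. Its CpG was listed at 3 of the 9 places. At Zfp988 it had 1, 2 and 1 reads in Het replicates 2 and 3 and day 2 replicate 1. At Zfp982 it had 7 reads in day 4 replicate 1 and 12 in day 8 replicate 1. At Zfp985 it had 3 reads in day 2 replicate 2 and 7 in day 8 replicate 2, and 13 reads in WT replicate 3. So 1 wild-type library listed this CpG with more reads than either knock-in library did. The other 6 places were listed in none of the 16 libraries.

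Zfp985 had the most listed CpGs of the printed promoters, 4 of 5. Counting from 1 at the 5′ end of the printed sequence, the C at base 152 was listed in 4 libraries, with 8, 11 and 8 reads in the Het libraries and 3 in day 8 replicate 1. The C at base 3 was listed in none of the 11. Zfp600 and Rex2, both zinc finger genes, differed at 4 of 250 bases (98.4% identity), and neither had a listed CpG. Zfp967 was identical to the promoter of Zfp966 (chr2:175931101-175931350, −), and Zfp968 and Zfp973 differed at 1 base (99.6%). In the chromosome 2 cluster, 13 promoter pairs differed at 25 or fewer of 250 bases, and 7 of those pairs, among 6 genes, were identical. The chromosome 4 cluster had 2 such pairs, none of them identical.

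Over the whole set, the 47 chromosome 2 cluster promoters held 121 CpGs, of which 1 was listed in any of the 11 knock-in libraries (0.826%). This CpG, at Gm41987, was listed in day 2 replicate 2. Promoters in the flanks of that cluster had 14.9% of 1629 CpGs listed, and all 32851 promoters had 12.8% of 361339. The 29 chromosome 4 cluster promoters held 147 CpGs with 28 listed (19.0%) against 13.9% in their flanks. The low share thus stood on chromosome 2, and these shares are descriptions with no test. CpGs were sparser in the cluster promoters, 9.74 and 18.5 per 1000 bases on chromosomes 2 and 4, against 44.0 and 37.4 in the flanks.

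Sequence sharing between promoters moved with this. On average 59.2% of the 50-base words of a chromosome 2 cluster promoter stood in another promoter as well, against 20.4% on chromosome 4 and 1.497% and 4.25% in the flanks. Among promoters with 50% or more of their words elsewhere, 0 of 103 CpGs on chromosome 2 (30 promoters) and 0 of 11 on chromosome 4 (4 promoters) were listed. Among the less shared ones the numbers were 1 of 27 (17 promoters) and 31 of 149 (25 promoters), where CpGs in overlapping promoters count for each. How reads that map to several copies were treated is not given in the sources used here, and its part in the low values of both clusters was not tested.

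Both clusters were listed more sparsely than their flanks, and most so on chromosome 2. Over the 11 knock-in libraries together, the chromosome 2 cluster had 1395 distinct positions, 4.65 per 10 kb window, against 83.7 per window in the proximal and 70.2 in the distal flank. The chromosome 4 cluster had 4565 positions, 18.3 per window, against 42.8 and 98.4. The flanks of the chromosome 4 cluster therefore differed from each other, and the distal one was the richer. A chromosome 2 cluster window had a median of 0 positions and at most 84, and a chromosome 4 window a median of 7 and at most 120.

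Many windows had no position at all. In the chromosome 2 cluster 188 of 300 windows (62.7%) were empty in all 11 libraries, and in the chromosome 4 cluster 72 of 250 (28.8%). The flank windows of the chromosome 2 cluster all had a position, while 9 of 300 (3%) in the proximal and 0 of 300 in the distal flank of the chromosome 4 cluster were empty. Windows listed in each of the 11 libraries numbered 17 on chromosome 2 and 63 on chromosome 4. The longest empty run, chr2:175180001-176700000, spanned 152 windows or 1.52 Mb. It holds 27 genes, 17 of them protein-coding, including Zfp965, Zfp966, Zfp967, Zfp968, Zfp973, Gm14391 and 2210418O10Rik. The next, chr2:176830001-177040000 with 21 windows, holds Gm14296. On chromosome 4 the longest run, chr4:145900001-146050000, had 15 windows and no whole gene.

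**Figure D1:**
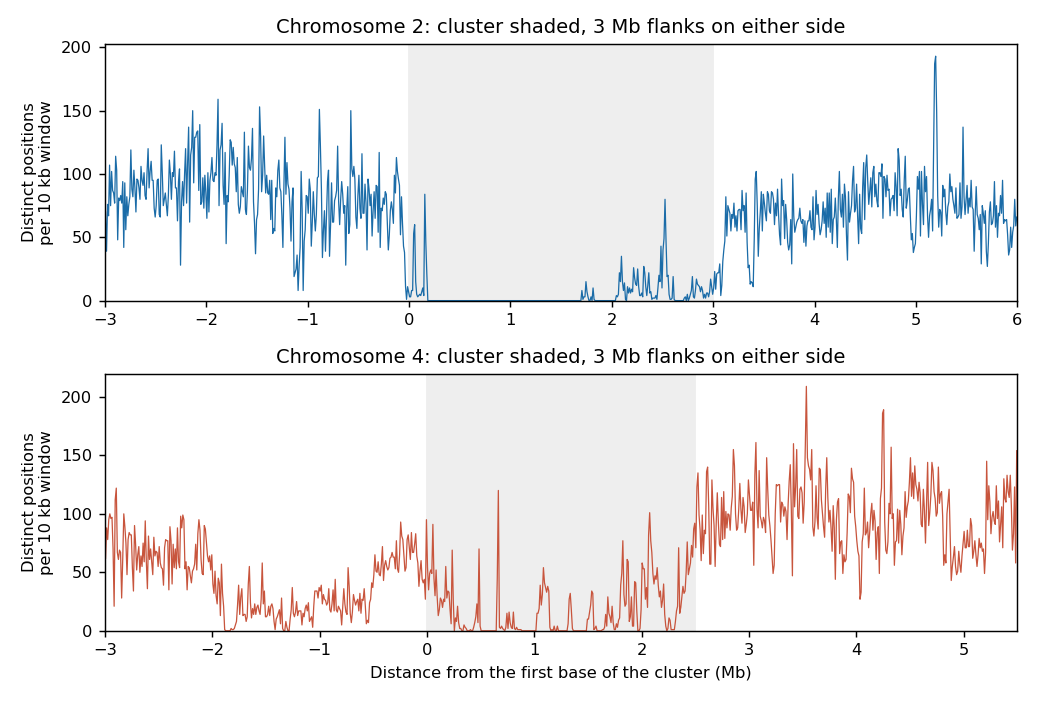
Distinct CpG positions listed per 10 kb window over the 11 knock-in libraries together (y axis), by distance from the first base of each cluster in Mb (x axis), with the cluster shaded and 3 Mb of flank on either side. The chromosome 2 cluster is empty over 1.52 Mb near its start, and the chromosome 4 cluster alternates between empty windows and windows of up to 120 positions.

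Windows with and without a protein-coding gene were both sparse. Chromosome 2 cluster windows that overlap a protein-coding gene had 3.69 positions each (114 windows, 79 empty), and the others 5.24 (186 windows, 109 empty). On chromosome 4 the values were 19.8 (148 windows, 35 empty) and 15.97 (102 windows, 37 empty). In the flanks, windows with a protein-coding gene had 94.9 and 74.0 positions on chromosome 2 and 40.9 and 98.2 on chromosome 4, proximal then distal. These are descriptions, with no test.

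Gene bodies showed the same split between the clusters. Of 30 protein-coding genes on chromosome 2, 19 had no listed position in any of the 11 libraries and 3 were listed in all of them, with a median of 0 positions per 10 kb of gene. On chromosome 4 each of the 22 had at least 1 position, 15 were listed in all 11 libraries, and the median was 23.4 per 10 kb. Gene bodies overlap, and a position in several genes was counted for each.

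On chromosome 2, LOC115489542 (chr2:175038194-175088818) had the most positions of the protein-coding genes, 136 distinct ones over the 11 libraries. It listed 21, 29 and 25 in Het, 9 and 8 on day 0, 13 and 20 on day 2, 23 and 19 on day 4, and 28 and 21 on day 8. Gm14393, which overlaps it, had 66. The pseudogene Gm14412 (chr2:177264488-177394732) had 137 and the long non-coding RNA gene Gm14403 had 53, both beyond the empty run. Among the protein-coding genes there, Gm14325 had 18, Zfp970 16, Gm14410 15 and Gm14326 13. Of the chromosome 2 zinc finger genes fixed for description, Zfp970 alone had listed positions, while Zfp965, Zfp968 and Zfp973 had 0 in each of the 16 libraries. Those 3 lie inside the empty run, which has no position by its definition, and Zfp970 lies distal to it at chr2:177464742-177479194.

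On chromosome 4, Zfp978 (chr4:147124882-147392027) had 575 distinct positions over 267146 bases and contains Zfp991 and Zfp988, which had 14 and 33. Zfp982 (chr4:147443114-147516064) had 450, or 61.7 per 10 kb, in fewer bases. Zfp993, the longest at 478623 bases, had 322, or 6.73 per 10 kb. Mfn2, at the distal edge and partly outside the cluster, had 82.0 per 10 kb and Miip 80.6, while Zfp933 beside them had 54.3. Zfp981 had 133, Zfp985 97, Zfp990 69 and Zfp992 59. At the low end, Zfp987 and Zfp534 had 3 distinct positions each, Rex2 7 and Zfp600 29. Rex2 was listed in 7 of the 11 libraries, with at most 3 positions in any, and Zfp600 in all 11 with 1 to 13. Among the 22 protein-coding genes of this cluster, density ranged from 0.803 per 10 kb in Rex2 to 82.0 in Mfn2.

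Single windows varied as much. Those with the most positions on chromosome 2 were chr2:175150001-175160000 (84, in Gm14393), chr2:177520001-177530000 (80, in no gene) and chr2:175050001-175060000 (60, in LOC115489542 and Gm14393). On chromosome 4 they were chr4:146060001-146070000 (120, in Gm13034), chr4:147470001-147480000 (101, in Zfp982) and chr4:147890001-147900000 (92, in Mfn2). The first of these listed 25, 55 and 38 positions in Het, 26 and 18 on day 0, 21 and 25 on day 2, 39 and 45 on day 4 and 43 and 33 on day 8. Among windows listed in all 11 libraries, reads per position were highest in chr4:147430001-147440000 (8.22), chr4:147600001-147610000 (8.20) and chr4:146520001-146530000 (8.12), and on chromosome 2 in chr2:177510001-177520000 (7.27), chr2:177310001-177320000 (7.23) and chr2:177070001-177080000 (6.96).

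Library by library, the chromosome 2 cluster held 187, 342 and 274 positions in Het, 109 and 106 on day 0, 165 and 147 on day 2, 205 and 245 on day 4, and 290 and 218 on day 8. The chromosome 4 cluster held 838, 1556 and 1220 in Het, 308 and 360 on day 0, 696 and 686 on day 2, 1014 and 1210 on day 4, and 1316 and 1138 on day 8. Both counts were lowest in the day 0 libraries. The libraries themselves ranged from 4202118 to 25175264 reads and from 390158 to 3423423 positions, with the lowest position totals on day 0. Cluster and flanks were therefore compared within each library, where they share the same depth.

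The ratio of cluster to flanks was below 1 in each of the 11 libraries, for each measure and both clusters. Position density, listed positions per 10 kb, was 17.2-fold lower in the chromosome 2 cluster than in its flanks (mean log2 ratio −4.11, SD 0.55, range −4.56 to −2.998, n = 11). In the chromosome 4 cluster it was 3.02-fold lower (−1.60, SD 0.42, range −1.96 to −0.73). Read density was 24.0-fold and 3.597-fold lower. Reads per listed position were also lower, at 0.717 and 0.840 times the flanks (mean log2 ratio −0.48, SD 0.16, and −0.25, SD 0.16). A two-sided exact sign-flip permutation test over the 11 libraries gave p = 0.000977 for each of the 6 comparisons, the smallest it can give and unchanged by Benjamini-Hochberg adjustment. With 1 mean per group as the unit, 5 values, the exact p was 0.0625, its smallest. Against the proximal flank alone the chromosome 4 log2 ratio of position density was −0.86, and against the distal flank alone −2.08. Densities are per base, and the CpG content of whole windows was not analysed here. Without the windows empty in all 11 libraries the log2 ratios were −2.69 on chromosome 2 and −1.13 on chromosome 4.

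**Figure D2:**
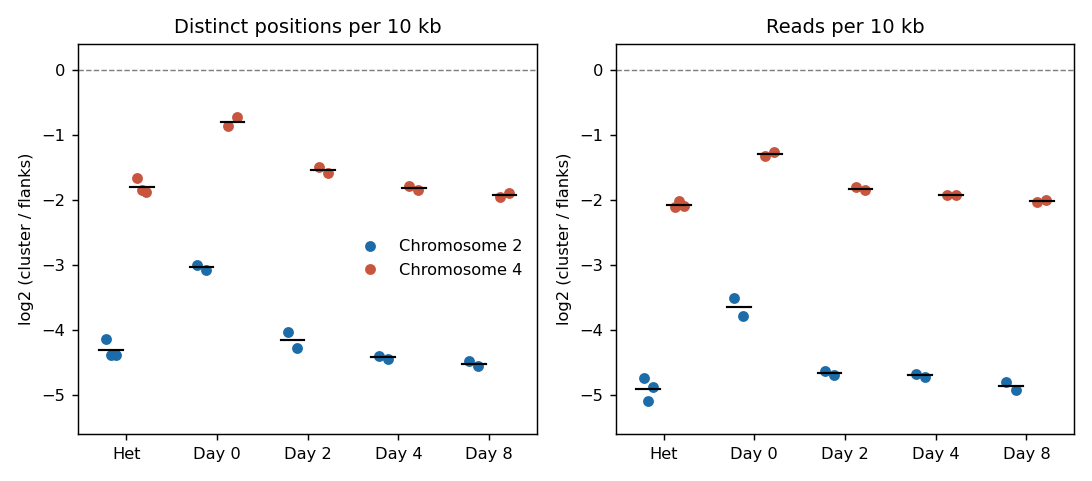
Log2 ratio of cluster to flanks in each knock-in library (y axis) for positions and for reads per 10 kb, by group (x axis); points are libraries and lines are group means. In both clusters the ratio of positions is nearest 0 on day 0 and lower on the later days.

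Reads per listed position are shown because a cluster could hold few positions of many reads. On day 0 the chromosome 2 cluster had 7.55 and 7.51 reads per position against 10.8 and 12.3 in its flanks, and on day 8 it had 3.33 and 3.19 against 4.17 and 4.10. On chromosome 4 it had 7.91 and 8.55 against 10.9 and 12.3 on day 0, and 4.04 and 3.85 against 4.25 and 4.18 on day 8. The cluster lay below its flanks in each of the 11 libraries. The chromosome 4 values came close to their flanks by day 8.

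**Figure D3:**
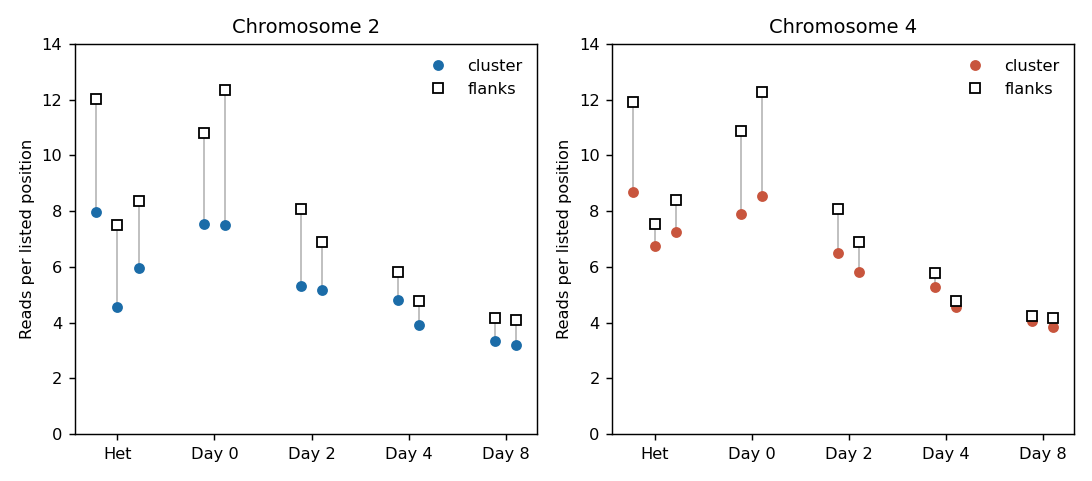
Reads per listed position (y axis) in each knock-in library (x axis), in the clusters (filled) and their flanks (open squares). Each cluster value lies below its flank value, and both fall from 7.51 to 12.3 on day 0 to 3.19 to 4.25 on day 8.

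The next comparison asked whether the clusters changed relative to their flanks as cells were primed. In both clusters the gap was wider on the later days. Total positions per library rose too, so a change with priming was not told apart from position total. In the chromosome 2 cluster, position density was 0.363 and 0.353 per 10 kb on day 0 and 0.967 and 0.727 on day 8, while its flanks had 2.90 and 2.97 and then 21.5 and 17.2. Read density there was 2.74 and 2.65 per 10 kb on day 0 and 3.22 and 2.32 on day 8, so these overlapped, while the flanks went from 31.3 and 36.6 to 89.5 and 70.4. In the chromosome 4 cluster, position density was 1.23 and 1.44 on day 0 and 5.26 and 4.55 on day 8, against 2.24 and 2.39 and then 20.4 and 16.9 in its flanks. The proximal flank of the chromosome 4 cluster alone had 1.46 and 1.75 on day 0 and 11.5 and 9.90 on day 8. On day 0 that cluster thus lay close to its proximal flank. Positions became more numerous in clusters and flanks alike, and by more in the flanks.

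Relative to its flanks, the chromosome 2 cluster had an 8.19-fold lower position density on day 0. The gap was 17.9-fold, 21.4-fold and 22.9-fold on days 2, 4 and 8, and 19.8-fold in Het. On chromosome 4 it went from 1.74-fold to 2.92-fold, 3.53-fold and 3.79-fold lower, with 3.47-fold in Het. The ratio on day 8 was 2.80-fold below that on day 0 on chromosome 2 and 2.18-fold below on chromosome 4. Day 0 and day 8 libraries did not overlap, and the exact permutation p of 0.333 is the smallest that 2 against 2 allow. Most of the step fell between days 0 and 2, with a log2 change of −1.13 and −0.75, against −0.36 and −0.38 from day 2 to day 8. The Het triplicate lay 0.21 and 0.13 above day 8 on the log2 scale (exact permutation p = 0.2 and 0.3) and at −1.27 and −0.9999 against day 0 (exact permutation p = 0.1 for both, the smallest possible).

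Over the 8 day libraries the log2 ratio of position density correlated with the day. On chromosome 2, Pearson r was −0.807 (exact permutation p = 0.0270, adjusted 0.0360) and Spearman rho −0.976 (exact p = 0.000794, adjusted 0.00159). On chromosome 4, r was −0.852 (exact permutation p = 0.0151, adjusted 0.0302) and rho −0.976 (exact p = 0.000794, adjusted 0.00159). Reads per position relative to the flanks moved the other way, with r = 0.853 on chromosome 4 (exact permutation p = 0.00913, adjusted 0.0302) and rho = 0.878 (exact p = 0.0103, adjusted 0.0138). On chromosome 2 this measure had r = 0.693 (exact permutation p = 0.0599, adjusted 0.0599) and rho = 0.732 (exact p = 0.0548, adjusted 0.0548) and missed the threshold. Adjustment was over these 4 relations. Without the 2 day 8 libraries, the farthest from the median day, r for position density was −0.933 and −0.960, and r for reads per position 0.851 and 0.980 on chromosomes 2 and 4.

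The calls were lost without day 0, where fewer libraries allow fewer permutations. There r for position density was −0.806 and −0.881 (adjusted exact p = 0.111 for both), against −0.807 and −0.852 with day 0. For chromosome 4 reads per position r was 0.737 without day 0 (adjusted exact p = 0.133), against 0.853 with it. Calls were also lost, at nearly the same r, without day 2 replicate 1 or day 4 replicate 1 (adjusted exact p = 0.0593 for chromosome 2 positions and 0.0508 for both chromosome 4 measures). Without day 4 replicate 2 the chromosome 2 position call was lost (0.0593). Total positions per library also rose with the day. Rarefying reads, given next, does not even out position totals, so day and position total were not told apart. With every library rarefied to the smallest knock-in read total, r for position density was −0.813 and −0.846 (adjusted exact p = 0.0266 and 0.0243), and that for chromosome 2 reads per position was 0.810 (0.0243).

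The same shift was seen against the rest of the genome. The reference was the mean density of genome windows with a position in any knock-in library, while the clusters and receptor families below keep their empty windows. Relative to it, chromosome 2 cluster positions went from a log2 value of −2.14 on day 0 to −3.74 on day 8. Chromosome 4 positions went from −0.24 to −1.19. Olfactory receptor windows (1261) and vomeronasal receptor windows (704), which also hold large tandem gene families of receptors for odorants and pheromones, were sparse as well. They went from −1.26 to −0.92 and from −1.87 to −1.69. So the clusters moved by −1.60 and −0.95, and the receptor families by 0.34 and 0.18; the difference between these changes was not tested.

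**Figure D4:**
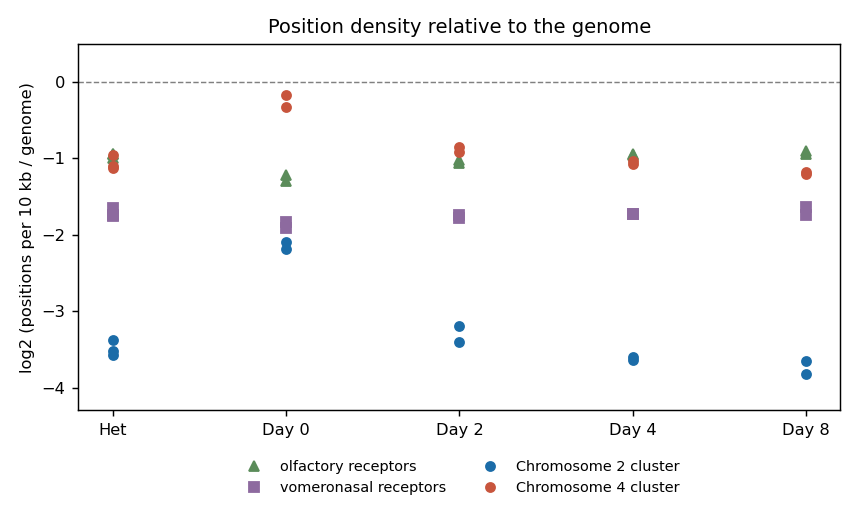
Log2 density of listed positions (y axis) by group (x axis) for both clusters and for olfactory and vomeronasal receptor windows. The reference is the mean of genome windows with a position in any knock-in library. From day 0 to day 8 the clusters change by −1.60 and −0.95 and the receptor windows by 0.34 and 0.18.

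The change was then tested in windows and genes with edgeR's quasi-likelihood test over the 8 day libraries, with Benjamini-Hochberg adjustment at 0.05 and changes relative to the whole library. A feature can pass the filter on low counts through its highest group, so counts of called members describe those tested and not all members. In 500 kb windows, 8 of the 10 windows wholly inside the clusters were tested and 6 were called lower on day 8 than on day 0. Of all 5125 such windows 29.1% were called, 15.4% as lower. The 2 not tested lie in the empty run. With each position counted once, 6 of 7 tested were lower (33.5% of all called, 18.1% lower). The common coefficient of variation between libraries fitted by positions was 0.0191, against 0.108 by reads. Little spread beyond counting error thus entered the p-values by positions. In 10 kb windows, 100 kb windows and gene bodies the coefficient by positions was the same, 0.00988. That can be a limit of the fit and not a measured spread.

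The largest change by positions was in chr2:177500001-178000000, which listed 43 and 48 positions on day 0 and 104 and 80 on day 8. This is a log2 change of −1.84 relative to the library (SE 0.21, edgeR adjusted p = 3.40e-15), and by reads it was −1.70 (SE 0.25, edgeR adjusted p = 0.000863). At chr4:147000001-147500000, where Zfp978 and most of Zfp982 lie, positions numbered 112 and 139 on day 0, 232 and 226 on day 2, 308 and 366 on day 4, and 389 and 328 on day 8. The log2 change there was −1.34 (SE 0.11, edgeR adjusted p = 2.30e-28) by positions and −0.91 (SE 0.15, edgeR adjusted p = 0.00128) by reads. The mean count rose from each sampled day to the next, with overlap between days 4 and 8, while the share of the library fell. The other 4 windows changed by −1.57 and −1.51 on chromosome 2 and by −1.003 and −1.25 on chromosome 4 by positions. The window chr4:146500001-147000000, with Zfp993 and part of Rex2, did not pass (log2 −0.60, SE 0.28, edgeR adjusted p = 0.0839 by positions, and 0.08, SE 0.31, adjusted p = 0.871 by reads). By reads fewer windows were called without either day 8 library, and 2 were called with the 4 compared libraries alone. By positions, leaving out any single library changed the count little. The share of all windows called in these fits is not given here, so the drop cannot be set against the genome.

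From day 2 to day 8, 0 of the 8 tested 500 kb windows were called by reads with edgeR, and 0 with DESeq2 (1 at an unadjusted p under 0.05; 0.0195% of all windows called). By positions 2 were lower (2.25% of all called, 1.04% lower). They were chr4:145500001-146000000 (log2 −0.70, SE 0.16, edgeR adjusted p = 0.00358) and chr4:147000001-147500000 (−0.49, SE 0.09, edgeR adjusted p = 3.81e-05), and 0 were called without day 2 replicate 1.

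In 100 kb windows, 5 of 36 tested in the clusters were called by reads, 4 lower and 1 higher (7.56% of all called, 3.91% lower and 3.65% higher), and 16 of 30 by positions, each lower (10.4% called, 6.56% lower).

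At 10 kb the reads gave no call in the clusters between days 8 and 0, where edgeR tested 139 windows and 29 had an unadjusted p under 0.05. The same test called 0.000421% of 237500 windows in the genome, and on simulated data at this width it recovered none of the changed windows. The share of all windows at an unadjusted p under 0.05 is not given here, so the 29 were not read as an excess. DESeq2 called 13 cluster windows, 5 higher and 8 lower (10.6% of all windows called). Without day 0 replicate 1, edgeR called 16 cluster windows by reads (16.2% of all windows), and without replicate 2 it called 15 (15.8%). With each position counted once, 57 cluster windows were tested and 9 called, 8 of them lower (1.05% of all windows called, 0.655% lower and 0.39% higher). Fewer cluster windows were called by positions without any one of the day 0 or day 8 libraries. The share of all windows called by positions in those fits is not given here.

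Among these 8 were chr4:146060001-146070000, whose positions are given above (log2 −1.84, edgeR adjusted p = 1.33e-05), and 3 adjoining windows of Zfp982 from chr4:147460001 to 147490000 (log2 −1.65, −1.47 and −1.67, edgeR adjusted p = 0.00308, 0.0142 and 0.00147). The one on chromosome 2 was chr2:177510001-177520000 (log2 −2.31, edgeR adjusted p = 0.00623), with 12 and 5 positions on day 0 and 10 and 11 on day 8. The window called higher, chr4:147820001-147830000 at an end of Zfp933, had 0 positions in both day 0 libraries, 8 and 7 on day 2, 15 and 15 on day 4 and 27 and 16 on day 8 (edgeR adjusted p = 0.0464). As a share of the library it was at least 2.02-fold higher, against a floor of 3 positions over both day 0 libraries. It moved against the other called windows of its cluster, and it was not called without any one of the 8 libraries.

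Over gene bodies, 30 cluster genes were tested by reads and 1, Zfp982, was called between days 8 and 0 (2.54% of 30249 genes called, 0.717% lower). Zfp982 encodes a zinc finger protein linked to the maintenance of mouse embryonic stem cells. It had 472 and 798 reads on day 0, 641 and 613 on day 2, 797 and 649 on day 4, and 673 and 512 on day 8, so raw reads overlapped between the days. As CPM with TMM scaling, they were 184 and 269, 103 and 111, 103 and 83.9, and 82.6 and 76.7, and day 0 lay above all later libraries. The log2 change from day 0 to day 8 was −1.51 (SE 0.21, edgeR adjusted p = 0.0193). It stayed below 0 under all 14 alternatives with reads, and passed the threshold under 7. The edgeR adjusted p was 0.0848 and 0.0861 without day 2 replicate 1 or 2, 0.0935 and 0.0904 without day 4 replicate 1 or 2, 0.208 and 0.220 without day 8 replicate 1 or 2, and 0.171 with the 4 compared libraries alone.

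With positions counted once, 18 cluster genes were tested and 6 were lower on day 8 (4.94% of 20415 genes called, 2.71% lower). Zfp982 listed 48 and 76 positions on day 0 and 164 and 133 on day 8 (log2 −1.63, SE 0.17, edgeR adjusted p = 2.26e-18). Zfp978 listed 46 and 48, then 149 and 126 (log2 −1.34, SE 0.18, edgeR adjusted p = 9.42e-10). Both passed without each of the 8 libraries. By reads Zfp978 changed by −0.71 (SE 0.23, edgeR adjusted p = 0.120) and did not pass. Gm13212, which carries the shared stretch, listed 7 and 10, then 16 and 16 (log2 −1.97, SE 0.47, edgeR adjusted p = 0.00237), and lost the call without day 0 replicate 2 (0.268). Gm42346 listed 23 and 10, then 61 and 47 (log2 −1.18, SE 0.30, edgeR adjusted p = 0.00701), and lost it without day 0 replicate 1 (0.774). LOC115489542 passed (log2 −1.36, SE 0.43, edgeR adjusted p = 0.0437) but not without any one library (0.0509 to 0.350). Gm14413, a long non-coding RNA gene on chromosome 2, passed on few positions, 3 and 3 on day 0 and 0 and 1 on day 8 (edgeR adjusted p = 0.0280). It was tested in 4 of the 8 fits that leave out 1 library, and lost the call without day 8 replicate 1 (edgeR adjusted p = 0.177) or 2 (0.0731). Fewer cluster genes were called by positions without either day 0 library, and the share of all genes called in those fits is not given here.

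Genes with many positions did not all pass the threshold, though the estimates given next were below 0 as well. Mfn2 listed 8 and 16 positions on day 0 and 75 and 74 on day 8 (log2 −0.26, SE 0.32, edgeR adjusted p = 0.733), Zfp984 6 and 10, then 51 and 37 (−0.43, SE 0.39, edgeR adjusted p = 0.618), and Zfp993 16 and 16, then 83 and 82 (−0.53, SE 0.28, edgeR adjusted p = 0.321). From day 2 to day 8, no cluster gene was called by reads with edgeR (1 of 30 at an unadjusted p under 0.05; 0.00331% of all genes called) or DESeq2. By positions Zfp978 (log2 −0.60, edgeR adjusted p = 0.0138), Zfp982 (−0.57, 0.0192) and Gm13212 (−1.37, 0.0403) were lower (0.225% of all genes called, 0.098% lower). None of the 3 passed without any one of the day 2 or day 8 libraries (edgeR adjusted p up to 0.638, 0.470 and 0.586), and Gm13212 also failed without day 4 replicate 1 (0.0537) or 2 (0.0676).

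A list of 20 genes covered the partners through which KRAB proteins act, with Trim28, Setdb1, the HP1 genes Cbx1, Cbx3 and Cbx5, Uhrf1 and the Dnmt genes. By edgeR on reads between days 8 and 0 it had 0 called in either direction, where 2.54% of all genes were called, and 5 at an unadjusted p under 0.05. DESeq2 called 3 of the 20 (17.5% of all genes called). Without day 0 replicate 1 edgeR called 7 (24.5% of all genes), and without replicate 2 it called 5 (23.8%), so the count for the list depends on the setting as that for all genes does. The median log2 change was 0.27 over the list and 0.18 over all genes. By positions 17 were tested, with 0 called and 2 at an unadjusted p under 0.05. From day 2 to day 8 both counts gave 0 called, with 0 and 2 at an unadjusted p under 0.05. The share of all genes at that unadjusted p is not given here, so the unadjusted counts were not read as an excess.

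Listed positions in the chromosome 4 cluster included a group that recurred in many libraries. Of its 4565 positions, 223 were listed in 6 or more of the 11 libraries, or 48.9 per 1000, against 5.38 and 8.70 per 1000 in the proximal and distal flanks. On chromosome 2 the rate was 5.73 per 1000 (8 positions), near the 6.65 and 5.94 of its flanks, and 60.6% of its positions were listed in 1 library alone, against 44.0% and 43.9%. On chromosome 4 that share was 42.1%, against 45.3% and 40.9%. These are descriptions over positions that share libraries and depth, with no test.

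One position, chr4:147420215, in no annotated gene, was listed in all 11 libraries. It had 26, 33 and 36 reads in Het, 7 and 20 on day 0, 12 and 36 on day 2, 15 and 9 on day 4, and 13 and 5 on day 8, and 0 in the 5 wild-type libraries. Those listed in 10 libraries were chr4:147335518 in Zfp978, and chr4:147417310 and chr4:147528433 in no gene. Several of the most recurrent positions thus lay between Zfp978 and Zfp985. On chromosome 2 the most recurrent were listed in 7 libraries, 3 of 5 in the pseudogene Gm14412. All were named after their values were seen.

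**Figure D5:**
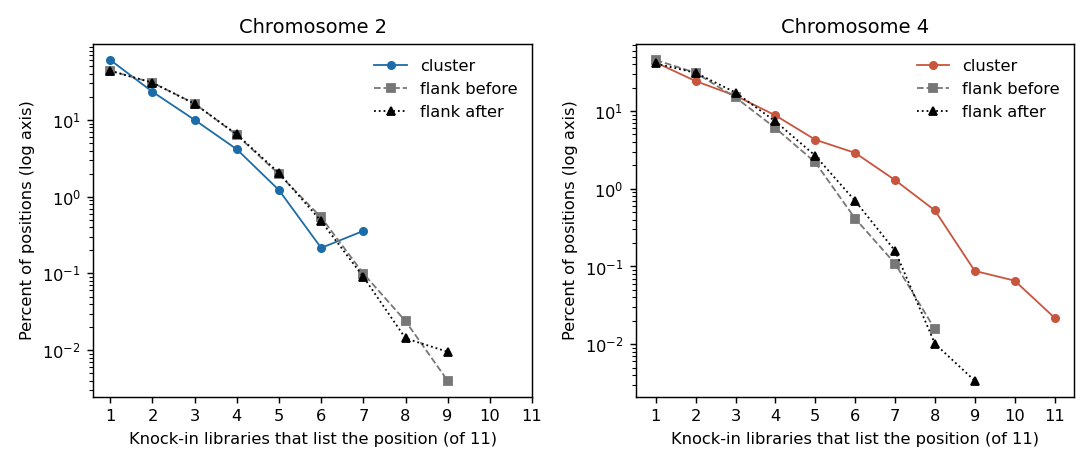
Percent of listed positions (y axis, log scale) by the number of the 11 knock-in libraries that list them (x axis), for each cluster and its proximal and distal flank. The chromosome 4 cluster has more positions listed in 6 or more libraries, 48.9 per 1000 against 5.38 and 8.70 in its flanks.

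The 5 wild-type libraries, which give the background, were shallow, with 1640 to 22890 reads and 960 to 9150 positions. Of their 23097 positions together, 5 lay in the chromosome 2 cluster (0.0216%, exact 95% interval 0.00703 to 0.0505) and 6 in the chromosome 4 cluster (0.0260%, 0.00953 to 0.0565). Their flanks held 118 (0.511%) and 107 (0.463%), so the background was sparse in the clusters too. Intervals cover counting error only. Both clusters together took 0.0581% ± 0.00375 (SD, n = 3) of positions in Het and 0.0644% ± 0.0563 in WT, where an exact permutation test gave p = 1. In the day libraries the share was 0.0715% ± 0.0248 (SD, n = 8), and in the wild-type control 0.0538% ± 0.0451 (n = 2; exact permutation p = 0.444). For the chromosome 4 cluster alone, the day libraries were higher by 0.0319 percentage points in positions and 0.0377 in reads (exact permutation p = 0.0444 and 0.0222, not adjusted). The control's side of that difference rests on 3 positions of 12651 (0.0237%, exact 95% interval 0.00489 to 0.0693), an interval that holds the 0.0491% of all day positions together.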

How the data were processed

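Azide-labelled DNA was joined to a biotinylated oligonucleotide, enriched and sequenced on an Ion Proton by the TOP-seq protocol, per the labels' protocols, from 900 ng of DNA per library. Reads were processed with cutadapt 4.4, BWA 0.7.17-r1188 and SAMtools 1.12 on mm10, per the submitters' processing notes. Multi-mapping and duplicate handling is not given in the sources used here. For each library the authors deposited a table of raw read counts per listed CpG position, with no normalization, per the file headers. All 81339 listed positions in the promoter table, over the 16 libraries, were the C of a CG. Unlisted positions were taken as 0, and reads without molecular identifiers can be PCR copies, so distinct positions were used beside reads.

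Groups came from the sample titles. Positions and reads were summed in 10 kb windows, cluster regions, RefSeq (GRCm38.p6) gene bodies and promoters with pandas 2.3.3, numpy 2.4.6 and scipy 1.17.1 on Python 3.11.15. Ratios of cluster to flanks were tested by exact sign-flip permutation, and trends by exact permutation, with Benjamini-Hochberg adjustment. Window and gene counts of the 8 day libraries were fitted with edgeR 4.0.16 (R 4.3.3; filterByExpr, TMM, glmQLFit, glmQLFTest) over all windows or genes, with DESeq2 1.42.0 as an alternative. Common coefficients of variation between libraries for reads were 0.694 in 10 kb windows, 0.108 in 500 kb windows and 0.488 in gene bodies. For distinct positions they were 0.0191 in 500 kb windows and the same 0.00988 in 10 kb windows, 100 kb windows and genes. Such an identical value can be a limit of the fit, so it was not taken as a measured spread. The edgeR test was tested on simulated data.

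The members and lists were chosen with earlier results of these data known. Named genes were the 6 protein-coding genes per cluster with the most positions, the 2 with the fewest, those called on day 8, and a fixed set. Named windows were the 3 with the most positions, the 3 with the most reads per position, the longest empty runs and those called. Genes and windows called by distinct positions, and the recurrent positions, were named after their values were seen, and 500 kb windows were added after seeing the data.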

Additional observations from a re-analysis of the deposited data

How the results depend on the processing

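Of 382 alternatives, 308 kept their call or a count within 1.5-fold, 16 lost a call, 4 gained one and 54 moved a count further. Of results past the threshold, 0 reversed direction. Those not past it could change sign and still count as kept. Alternatives for clusters against flanks included other flanks, rarefied reads, positions of at least 2 reads and leaving out each library. Of these 132, 126 kept direction and call. The 6 that did not used 1 mean per group as the unit, with an exact p of 0.0625, the smallest possible. Their log2 ratios were −4.09, −4.56 and −0.47 on chromosome 2 and −1.58, −1.82 and −0.25 on chromosome 4 for positions, reads and reads per position. Without each library in turn the 6 values ranged from −4.22 to −4.06, −4.69 to −4.54, −0.50 to −0.46, −1.68 to −1.56, −1.91 to −1.82 and −0.27 to −0.22.

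Over the days, leaving out each library gave r of −0.864 to −0.754 for positions and 0.596 to 0.731 for reads per position on chromosome 2, and −0.881 to −0.812 and 0.813 to 0.904 on chromosome 4. Without day 0 these were −0.806, −0.881 and 0.737 for the 3 lost calls. Rarefied reads gave 0.810 for chromosome 2 reads per position, a call gained; the cause was not tested. Replicate numbers did not pair the libraries, whose deviations correlated by −0.0166 to 0.00834 over 6 pairs of days. With the replicate number as a block, r was −0.811 and 0.694 on chromosome 2 and −0.852 and 0.853 on chromosome 4, and the block changed no call: 0 windows of 10 kb, 6 of 500 kb and 1 gene from day 0 to day 8.

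Counts of called cluster windows from day 0 to day 8 were 0 by reads at 10 kb, 9 by positions, 13 with DESeq2, 5 and 16 at 100 kb by reads and positions, and 6 and 6 at 500 kb. Without each library the 10 kb counts ranged from 0 to 16 by reads and, by positions, were 2, 2, 8, 7, 6, 6, 3 and 5 for the libraries in day order, and the 500 kb counts from 2 to 6 and 5 to 6. Where a day kept 1 library, edgeR assumes that it varies like the other days. With the 4 compared libraries alone the 500 kb count was 2, with fewer libraries behind the spread. From day 2 to day 8, 500 kb windows gave 2 by positions, 0 to 1 by reads and 0 to 2 by positions without each library. Genes called from day 0 to day 8 were 1 by reads, 6 by positions, 4 with DESeq2 and 0 with the 4 libraries alone, and 0 to 5 by reads and 3 to 5 by positions without each library. From day 2 to day 8 they were 3 by positions and 0 to 3 without each library. The share of all 10 kb windows and genes called also moved with the setting, as given above for DESeq2 and for reads without a day 0 library. It is not given for the other alternatives, so these counts cannot set the clusters apart from the genome. Apart from fewer libraries, the cause of these moves was not tested. In the chromosome 4 cluster alone, shares exceeded the wild-type control by 0.0319 points of positions and 0.0377 of reads, against 3 control positions. Without each library, the differences of Het and WT in both clusters ranged from −0.0384 to 0.0137 and −0.0567 to 0.0168 points, and those of days and control from −0.0142 to 0.0497 and −0.0148 to 0.0499.

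Depth limits the 10 kb windows, where positions are few, and the wild-type tables.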
